A study of Mus musculus with 2 samples.

Results

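The miR-21 family of the mouse has 3 microRNA genes, Mir21a, Mir21b and Mir21c, and all of them were listed among the 2202 genes counted here. The rule that picked them used their symbols in the GENCODE vM21 annotation and no measured value. Earlier results of these data were known when the family was chosen. Small RNA was counted in 2 libraries of gastrocnemius, a large muscle of the calf, taken from male B6CASTF1/J mice 14 days old. This strain is the first-generation cross of C57BL/6 and CAST/EiJ mice, and no transgene, treatment or second group is given. Both libraries are biological replicates of 1 group, so no condition could be compared with another. Both carry 1 shared donor identifier and a label that mentions several males. Whether a replicate came from 1 animal or from pooled animals is not stated, and the spread between the libraries may be partly technical.

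MicroRNAs are cut from a hairpin in a longer primary transcript into mature strands of about the length sequenced here. A mature strand finds its target messenger RNAs mainly through its seed, bases 2 to 8 counted from the 5′ end, and lowers their stability and translation. miR-21 is made by many cell types. It is known for rising in injured, inflamed and fibrotic tissue and in tumours, and its known targets include Spry1, an inhibitor of receptor kinase signalling. In dystrophic mouse muscle it has been linked to fibroblasts and to scarring.

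The family divides by sequence, so the mature strands are shown first, as RefSeq gives them on GRCm38.p6, the assembly of mm10. The seed is in capitals.
miR-21a-5p: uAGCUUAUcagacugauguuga
miR-21c: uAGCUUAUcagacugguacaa
miR-21b: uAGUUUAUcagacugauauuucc
miR-21a-3p: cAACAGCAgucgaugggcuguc

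miR-21a-5p and miR-21c had the same seed, AGCUUAU, which pairs with AUAAGCU in a target. Compared base by base from the 5′ end, with miR-21a-5p first, they differed at 5 of 21 positions (A16G, G18A, U19C, U20A and G21A), all behind the seed. miR-21b differed from miR-21a-5p at 4 of 22 positions (C4U, G18A, G21U and A22C). The first of these, C4U, lies in the seed, so miR-21b pairs with AUAAACU. Among the 1738 mature entries in the RefSeq table, no microRNA outside the family had any of these seeds. These entries cover 1018 of the 2202 genes counted here, so the same seed in a gene without an entry would be missed. miR-21a-3p comes from the other arm of the Mir21a hairpin and has a seed of its own.

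The genes lie on 3 chromosomes (mm10 coordinates). Mir21a (ENSMUSG00000065455.1; chromosome 11, 86584067 to 86584158, minus strand) is in the last exon of Vmp1, which encodes a membrane protein of autophagy. Its hairpin of 92 bases sits within the 1446-base 3′ UTR, 1152 bases from the UTR's start and 202 bases before the end of the Vmp1 transcript. Mir21b (ENSMUSG00000098315.1; chromosome 3, 29636744 to 29636851, plus strand) is in an intron of Egfem1. Mir21c (ENSMUSG00000099326.1; chromosome 8, 128278148 to 128278225, minus strand) is within no annotated gene on its strand. The nearest protein-coding gene to it is Nrp1, a receptor of nerve and vessel growth, 80379 bases away on the plus strand.

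Of the 3 genes, Mir21a alone had counts. It had 34608 counts in replicate 2 and 45262 in replicate 1. As CPM, the count scaled to a fixed total of all counts assigned to a microRNA gene, that was 15651 CPM in replicate 2 and 16497 in replicate 1. The mean was 16074 CPM ± 598 (SD, n = 2). In replicate 2 Mir21a held 1.57% of assigned counts, with a 95% Wilson interval of 1.55 to 1.58%. In replicate 1 it held 1.65%, with an interval of 1.63 to 1.66%. These intervals do not overlap, and the SD was 3.72% of the mean.

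Mir21b and Mir21c had 0 counts in both libraries, on their own strand and on the opposite strand. At this depth a count of 0 allows up to 3 counts, which is 1.36 CPM in replicate 2 and 1.09 in replicate 1. Mir21a was therefore at least 11536-fold higher than either paralog in replicate 2, and at least 15087-fold higher in replicate 1, each against the limit of 3 counts in that library. Mir21a also had 0 counts on the opposite strand in each library. A count of 0 was common in the table, where 1573 of 2202 genes had none in either library.

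**Figure D1:**
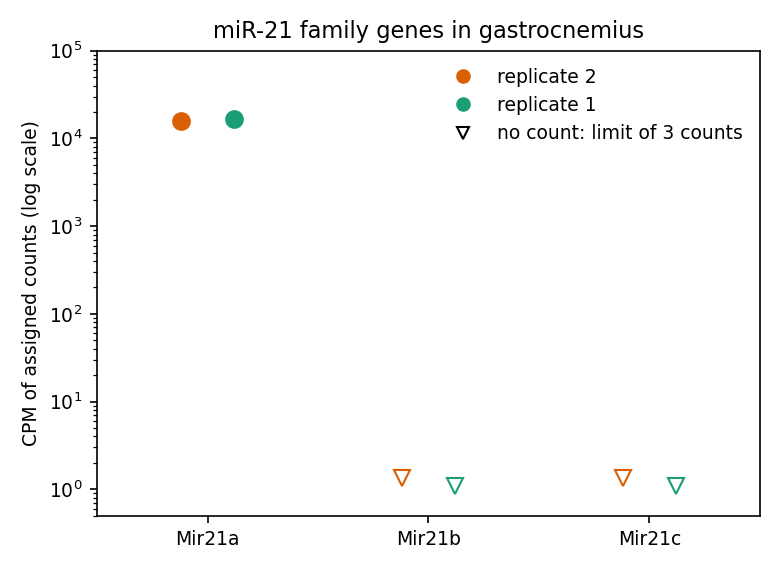
CPM of assigned counts (log scale) for Mir21a, Mir21b and Mir21c in replicate 2 and replicate 1. Filled points are measured values and open triangles mark the limit of 3 counts for a gene with no count. Mir21a stood at 15651 and 16497 CPM, and both paralogs had no count, with the limit of 3 counts at 1.36 and 1.09 CPM.

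Reads that mapped to several loci were in no gene's count, so the likeness of the 3 genes bears on how a read would be assigned. The longest run of bases that miR-21a-5p had in common with another hairpin of the table was 15 bases, with Mir21c, and it covered bases 1 to 15. With Mir21b the run was 13 bases, from base 5 to base 17. Outside the family it was 11 bases. Each whole mature strand was found at 1 microRNA gene, and among 141767 annotated transcripts miR-21a-5p and miR-21a-3p were found besides in Vmp1, the gene that holds their hairpin. A full-length read of any of the 3 genes therefore matches a single microRNA gene, while a read cut to the first 15 bases would match both Mir21a and Mir21c. Matches elsewhere in the genome were not tested. Such several-locus reads made up 52.1% of the 8189059 reads of replicate 2, which had 2211254 assigned to a gene, and 44.0% of the 10056843 reads of replicate 1, which had 2743657 assigned.

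By assigned counts, Mir21a was the 16th most abundant of the 2202 genes in mean CPM, at place 17 in replicate 2 and place 15 in replicate 1. Below Mir21a came 613 further genes with any count. Among 233 genes with a RefSeq mature strand and 10 CPM or more in both libraries, 38 (16.3%) have 20 mature bases in common with another hairpin. Reads from that stretch are missing from their counts, so the rank holds for assigned counts alone. The genes just above Mir21a in mean CPM were Mir335, which lies in the imprinted gene Mest, Mir26b, Mir99a, Mirlet7d and Mir23a. Mir335 had 18890 CPM in replicate 2 and 16451 in replicate 1. Mir99a had 16379 CPM in replicate 2 and 20519 in replicate 1. Mir335 was above Mir21a in replicate 2 and below it in replicate 1. Mir99a was above Mir21a within each library, while its range over the 2 libraries overlapped that of Mir21a. Mir26b, Mirlet7d and Mir23a were also above Mir21a in each library, with no overlap of the ranges.

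The genes just below were Mirlet7b, Mir487b, Mir322, Mir22 and Mir10b. Mirlet7b, of the let-7 family that accumulates as tissues differentiate, overlapped with Mir21a at 16476 CPM in replicate 2 and 15387 in replicate 1. Mir487b of the imprinted Dlk1-Dio3 cluster did not overlap, with 15589 CPM in replicate 2 and 15488 in replicate 1. Its gap to Mir21a was small, since Mir21a was 1.03 ± 0.0433 times Mir487b (SD, n = 2). Mir322 and Mir22, both known from muscle, and the Hox cluster microRNA Mir10b were below Mir21a in both libraries. By the larger of the absolute log2 CPM differences in the 2 libraries, the 5 genes whose levels were most like that of Mir21a were Mir487b (0.09), Mirlet7b (0.10), Mir335 (0.27), Mir26b (0.30) and Mir99a (0.31). That measure rests on 2 libraries and describes likeness of level.

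**Figure D2:**
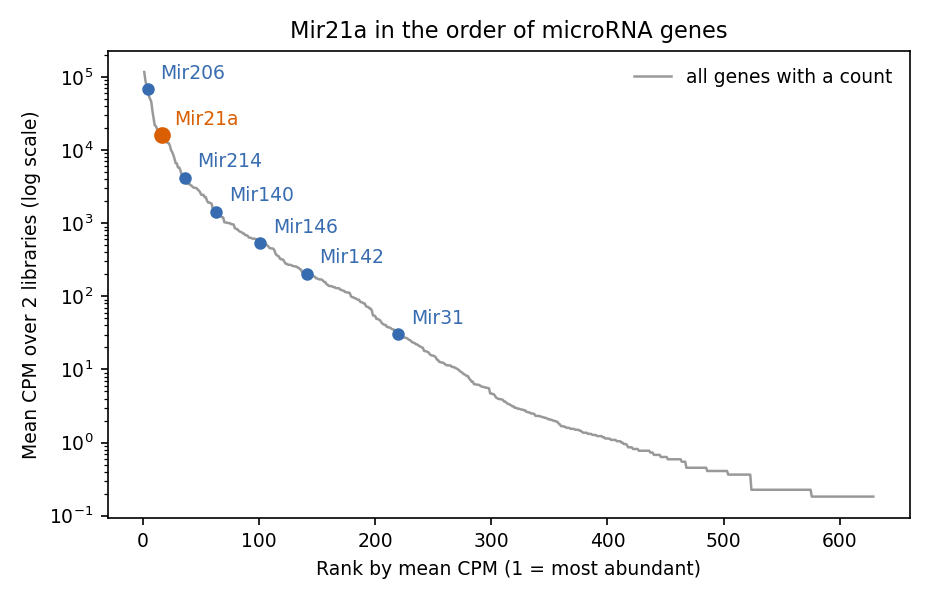
Mean CPM over the 2 libraries (log scale) against rank for every gene with a count (grey line). Mir21a, in orange, stands at rank 16 with 16074 CPM, below the muscle microRNA Mir206 and above Mir214, Mir140, Mir146, Mir142 and Mir31, in blue.

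Mir21a was then set beside microRNAs of the processes and cells it is known with. Counts were compared between genes per hairpin without a correction for length, since each mature strand gives a whole read. Whether different strands entered the libraries equally well was not tested. The ratios between genes are therefore ratios of counts, and their SD does not cover such a difference. In whole tissue, fewer cells of a type and less RNA per cell cannot be told apart. The list for fibrosis and connective tissue has 10 genes, and Mir21a was the highest of them in assigned counts. It made up 73.6% of the summed CPM of the list in replicate 2 and 71.2% in replicate 1. Mir214, transcribed with Mir199a-2 from a long RNA of mesenchymal cells, followed with 3708 CPM in replicate 2 and 4738 in replicate 1. Mir21a was 3.85 ± 0.523 times Mir214 and 11.1 ± 0.104 times Mir140, a microRNA of cartilage (SD, n = 2). Mir140 had 1395 CPM in replicate 2 and 1490 in replicate 1.

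The miR-29 genes, known to restrain collagen messages, were lower. Mir29a had 301 CPM in replicate 2 and 216 in replicate 1, and Mir29c had 133 CPM in replicate 2 and 124 in replicate 1. Mir21a was 64.1 ± 17.1 times Mir29a. Mir199a-1, Mir199a-2, Mir199b, Mir29b-1 and Mir29b-2 lay between 0.452 and 44.8 CPM in a library. Each of these 5 genes has a mature strand with 20 bases in common with another hairpin of the table, unlike the 3 miR-21 genes. Reads from that stretch are missing from their counts. The top place of Mir21a in this list and its share of the sum therefore hold for assigned counts alone.

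Leukocyte microRNAs were far below Mir21a. The 6 genes of that list summed to 1549 CPM in replicate 2 and 1547 in replicate 1. Mir21a was 10.1 times this sum in replicate 2 and 10.7 times in replicate 1. The highest member was Mir146, which restrains innate immune signalling, at 501 CPM in replicate 2 and 569 in replicate 1. Mir223, abundant in neutrophils and other myeloid cells, had 139 CPM in both libraries, and Mir142, found across blood cells, had 208 CPM in replicate 2 and 198 in replicate 1. All 6 genes had a count, and Mir146b, at 1 count in replicate 2 and 3 in replicate 1, did not exceed 3 counts.

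The list for growth and the cell cycle has 10 genes, and none was above Mir21a in assigned counts. Mir92-1 and Mir19b-1 each have 20 mature bases in common with another hairpin, so reads from that stretch are missing from their counts. Mir10b came nearest, and Mir21a was 1.30 ± 0.177 times it. Mir17, the leading gene of the miR-17-92 cluster, had 2098 CPM in replicate 2 and 1985 in replicate 1, so that Mir21a was 7.88 ± 0.603 times Mir17. Mir155, made by activated lymphocytes and macrophages, had 370 CPM in replicate 2 and 329 in replicate 1. Of the pair Mir221 and Mir222, which target an inhibitor of the cell cycle, Mir221 had 207 CPM in replicate 2 and 165 in replicate 1.

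The list for injury and dystrophy holds 11 genes reported to change in dystrophic muscle, and 2 of them had a higher mean CPM than Mir21a. Mir206, the skeletal muscle microRNA of growing and regenerating fibres, was above it in both libraries, at 67909 CPM in replicate 2 and 68288 in replicate 1. The other was Mir335, which was above Mir21a in replicate 2 and below it in replicate 1. Mir21a was 0.236 ± 0.00786 times Mir206. Mir31, which is made in muscle stem cells, had 36.6 CPM in replicate 2 and 24.1 in replicate 1, and Mir34c had 105 CPM in replicate 2 and 96.6 in replicate 1. Mir135a-1 had no count in either library, and Mir135a-2 had 2 counts in replicate 2 and 0 in replicate 1. These genes have 20 mature bases in common with each other, so reads from that stretch are missing from their counts and the values do not show how far miR-135a was expressed. The striated muscle markers, which check the tissue, had counts for 9 of 9 genes. Of these, 7 were at 10 CPM or more in both libraries. Of all 2202 genes, 629 had a count in either library and 258 were at 10 CPM or more in both. The markers summed to 69214 CPM in replicate 2 and 69535 in replicate 1, nearly all of it Mir206. The counts of Mir133a-1, Mir133a-2 and Mir133b lack reads from a 20-base stretch they have in common, so the share of Mir206 in this sum holds for assigned counts alone. Of the vessel list, Mir126a of endothelium and Mir143 of smooth muscle were above Mir21a, and Mir145a was below it. Mir21a was 0.462 ± 0.000394 times Mir143.

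**Figure D3:**
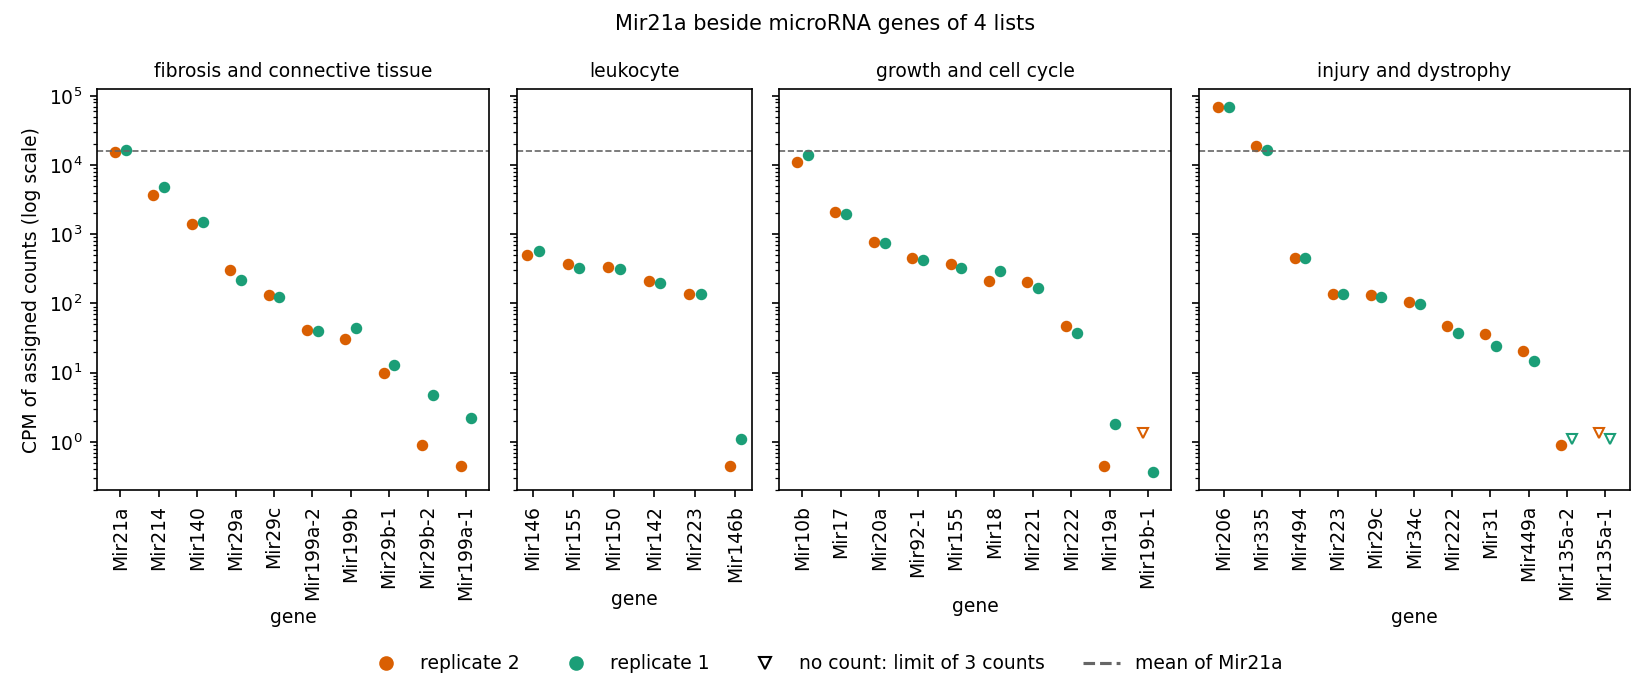
CPM of assigned counts (log scale) in replicate 2 and replicate 1 for the genes of 4 lists, ordered by level. The dashed line is the mean of Mir21a at 16074 CPM, open triangles mark the limit of 3 counts, and Mir206 and Mir335 of the injury and dystrophy list are the genes that stand above the line.

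The mature strands of the family also have a short motif in common. In human vascular smooth muscle cells, SMAD proteins of the TGF-beta pathway have been reported to bind CAGAC in the stem of the miR-21 hairpin and to promote its processing. CAGAC was searched as those letters on the mature strand only, and 32 of 1738 mature entries (1.84%) hold it, where a strand encoded at several genes is an entry at each. miR-21a-5p has it at bases 9 to 13, and miR-21b and miR-21c also hold it. The strands below belong to the most abundant genes with the motif, which is in capitals, and their own levels are not known, since counts are per hairpin.
miR-21a-5p: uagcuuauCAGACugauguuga
miR-214-3p: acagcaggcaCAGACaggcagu
miR-7689-3p: uuagagcCAGACugccuggguuu
miR-199a-5p: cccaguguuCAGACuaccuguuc

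Genes whose mature strand holds the motif numbered 29 in the table, and 4 of these (13.8%) were at 10 CPM or more in both libraries, against 233 of 1018 genes (22.9%) with a mature strand in RefSeq. Those 4 were Mir21a, Mir214, Mir7689 with 57.0 CPM in replicate 2 and 52.8 in replicate 1, and Mir199a-2 with 41.6 CPM in replicate 2 and 39.7 in replicate 1. The count of Mir199a-2 lacks full-length reads of miR-199a-5p, which is identical at Mir199a-1. Mir3097, Mir429, Mir199a-1, Mir7018, Mir215 and Mir3569, next in order, were each under 5 CPM in both libraries. Mir21a held 80.4% of the CPM of all 29 genes in replicate 2 and 77.3% in replicate 1. A match is a description of these letters and does not show a binding site.

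A last comparison set the 2 libraries against each other, for the 258 genes that had 10 CPM or more in both. Mir21a was the 1 family member that could be tested. With library sizes scaled by the trimmed mean of M-values (TMM), it had 15400 CPM in replicate 2 and 16766 in replicate 1. The log2 ratio, replicate 2 minus replicate 1 on log2(CPM + 1), was −0.12 (two-sided exact binomial test, Benjamini-Hochberg adjusted p = 9.65e-32). That test compares these libraries, not conditions, and covers counting error only. Passing it was common, as 131 of 258 genes did (50.8%), 49 higher and 82 lower (31.8%) in replicate 2, or 67 higher and 66 lower with library sizes from total counts. With edgeR's exact test Mir21a had an adjusted p of 0.997, and 1 gene, Mir137, passed. That test takes its dispersion from the same 2 libraries it compares, so few genes could pass, and the p does not show that the libraries were alike.

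The difference was small beside those of other genes. A larger absolute log2 ratio was found for 165 of the 258 genes (64.0%), and the median absolute log2 ratio was 0.178. Mir21a did not reach a 2-fold difference, and 3 genes (1.16%) did: Mir137, Mir1249 and Mir138-1, named after their values were seen. The ratio of Mir21a stayed negative with library sizes from total counts (−0.08) and with DESeq2 size factors (−0.09).

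Of the 10 genes in the fibrosis and connective tissue list, 7 could be tested, Mir21a among them. Of these 7, 4 were lower and 1 was higher in replicate 2, the same counts as with library sizes from total counts and with DESeq2 size factors. Over all 258 genes 50.8% passed and 31.8% were lower, and by edgeR's exact test none of the 7 passed. The median log2 ratio of the 7 was −0.12, which is the ratio of Mir21a itself, beside −0.04 over all 258 genes. Mir214 (−0.40), Mir140 (−0.14) and Mir199b (−0.57) were lower in replicate 2 with Mir21a, and Mir29a (0.43) was higher. Mir29c (0.05) and Mir199a-2 (0.02) did not pass. In assigned counts, the summed level of the list was 21271 CPM in replicate 2 and 23169 in replicate 1, most of it Mir21a. Without Mir21a the sum was 5620 CPM in replicate 2 and 6672 in replicate 1. Mir214 alone held 3708 and 4738 CPM of these sums. The leukocyte list summed to 1549 CPM in replicate 2 and 1547 in replicate 1. The part of the cell makeup of the samples in the ratio of Mir21a was not tested.

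**Figure D4:**
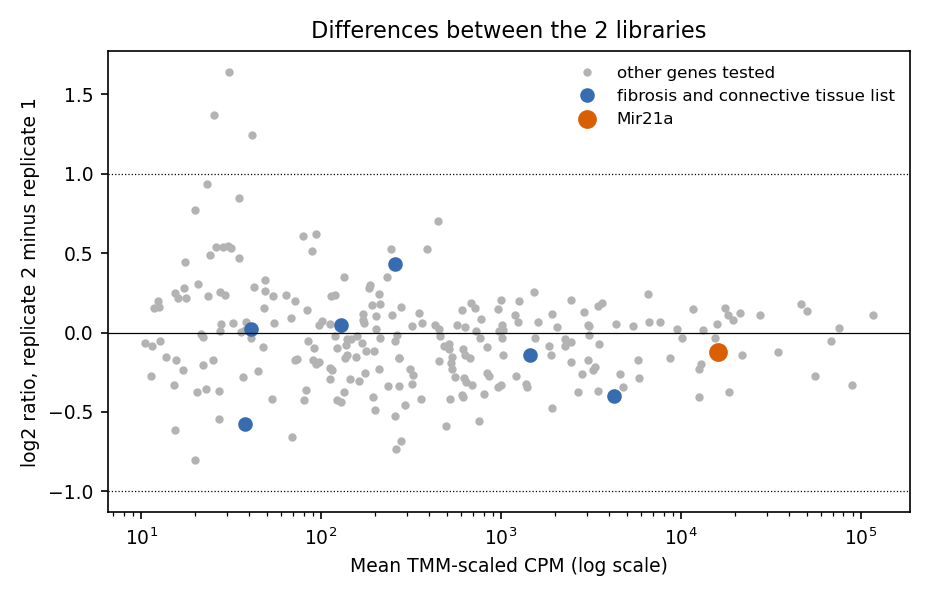
Log2 ratio of replicate 2 minus replicate 1 against mean TMM-scaled CPM (log scale) for the 258 genes tested. Mir21a, in orange, lies at −0.12, the other tested genes of the fibrosis and connective tissue list are in blue, and dotted lines mark a 2-fold difference.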

How the data were processed

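The authors deposited whole-number read counts per microRNA gene, with 1 table per library, on mm10 with the M21 annotation, per the notes deposited with the tables. The aligner, the counter and the trimming are not given in the sources used here. The size range was under 30 nt, per the labels. The third column, which holds own-strand reads, was analysed. The 4 lines that name no gene, 73.0% of reads in replicate 2 and 72.7% in replicate 1, were left out. CPM was computed over all genes. Intervals (Wilson, 95%) and the limit of 3 counts cover counting error only, since PCR reads are not independent molecules.

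Library sizes were scaled with edgeR 4.0.16 (TMM over all genes) in R 4.3.3, with DESeq2 1.42.0 size factors as an alternative. A gene passed at an adjusted p below 0.05, and 2-fold differences were counted separately. The binomial step was run on simulated counts with set 2-fold changes and counting error alone. That run cannot show how the test behaves under further variation between libraries. Symbols and positions came from GENCODE vM21, and all 3 members matched RefSeq sequences. Named were the members, genes with the same seed, the 5 neighbours above and the 5 below, the 5 most alike, the 10 most abundant with CAGAC, and up to 4 genes a list with values, beside which a few more were named after their values were seen. The members and lists were chosen with earlier results of these data known.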

Additional observations from a re-analysis of the deposited data

How the results depend on the processing

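The 0 counts of Mir21b and Mir21c were the same with either strand counted and in each library. The level of Mir21a, 16074 CPM, depended on the denominator. It was 20956 CPM with either strand counted, where reads under genes on opposite strands drop out of the total, 18207 CPM without the most abundant gene in the total, 4363 CPM when all reads, with those assigned to no gene, made up the total, and 16083 CPM with TMM library sizes. Leaving out 1 library gave 15651 to 16497 CPM and ranks 15 to 17, and the rank was 14 with either strand counted. The lower limit of Mir21a over each paralog was 11536-fold to 15087-fold with 1 library left out. Changing which genes are admitted, or the pseudocount, cannot alter the unadjusted binomial p of Mir21a, so passing in those settings adds no support. The log2 ratio between the libraries lay between −0.13 and −0.08 in all 9 settings and passed in 8 of them. It did not pass with edgeR's exact test (−0.12, adjusted p = 0.997), by which 1 gene differed, also by 2-fold. With the exact binomial test, 10 genes differed 2-fold when every gene with a count was admitted, and 0 of 178 at 100 CPM or more, where 123 had an unadjusted p below 0.05 with no fold threshold. No paired analysis was possible because there is 1 group. The ratio between the libraries cannot be taken with a library left out. Depth limits Mir21b and Mir21c to under 1.36 CPM in replicate 2 and 1.09 in replicate 1, and the count per hairpin does not separate miR-21a-5p from miR-21a-3p.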

Other observations

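By assigned counts, Mir21a was the most abundant of the microRNA genes that lie within a UTR of a protein-coding gene on the same strand. The annotation placed 69 of the 2202 genes there, 33 of them had a count and 6 (8.70%) were at 10 CPM or more in both libraries. These 69 genes summed to 21005 CPM in replicate 2 and 22771 in replicate 1. After Mir21a came Mir27b, known in muscle for targeting Pax3, with 4265 CPM in replicate 2 and 5236 in replicate 1, and Mir324, in a UTR of the Wnt signalling gene Dvl2, with 989 CPM in replicate 2 and 950 in replicate 1. Mir24-1, Mir331 and Mir5113 were the others at 10 CPM or more. By comparison, 94 of 805 genes (11.7%) in an intron of a protein-coding gene, where Mir21b lies, and 86 of 1023 genes (8.41%) within no gene on their strand, where Mir21c lies, were at 10 CPM or more in both libraries.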
